A study of Mus musculus with 4 samples.

Results

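B cells other than plasma cells were examined in whole-kidney single-cell RNA libraries from mice that carry or lack a missense mutation of Slc5a2, the gene of the glucose transporter SGLT2 of the proximal tubule, and that ate a normal diet (ND) or a high-fat diet (HFD). A barcode was taken as a B cell where it had 200 to 5000 detected genes, under 50% of its UMIs (unique molecular identifiers, the counted transcript molecules) on mitochondrial genes, and at least 3 UMIs in all of Ms4a1 (CD20) and Cd79a and Cd79b (the signalling pair of the B cell receptor), with fewer than 10 UMIs of Mzb1 and 20 of Jchain (both high in antibody-secreting cells), fewer than 5 of the macrophage genes C1qa, C1qb and C1qc, and fewer than 2 of the T cell genes Cd3d, Cd3e and Cd3g. This rule found 176 barcodes among 34789 that passed the limits on genes and mitochondrial UMIs, out of 58660 in all. The values of those genes are given below as a description with no test, since the members were chosen by them.

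The 4 libraries came from male C3H/HeJ (C3H) mice 18 weeks old, with 1 library for each of WT mice on ND (WT-ND), WT mice on HFD (WT-HFD), Sweet Pee (SP) Slc5a2 mutants on ND (SP-ND) and SP mutants on HFD (SP-HFD). Where a value is given for all 4 libraries without their names, it follows this library order. Feeding began at 10 weeks of age and lasted 8 weeks, and fat gave 60% of the calories of the HFD. The mutation is germline and is in every cell of the SP mice, and whether a library held 1 mouse or several is not given in the sources used here. With 1 library per condition there are no replicates and differences between conditions were not tested: counts are given with exact 95% intervals that cover counting error only, and any difference between mice or preparations cannot be told apart from diet or genotype.

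WT-ND and WT-HFD held 42 B cells each, SP-ND 37 and SP-HFD 55. The summed B cell depth was 155224, 143324, 119509 and 161542 UMIs in library order, and the median B cell had 1791, 2715, 2147 and 2316 UMIs and 742, 1061.5, 857 and 859 detected genes. T cells, taken as barcodes with at least 3 Cd3d, Cd3e and Cd3g UMIs and fewer than 2 UMIs of the B cell rule genes, had a somewhat higher median depth of 2531, 3583, 2763 and 2948.5 UMIs. Monocytes and dendritic cells, taken as barcodes with at least 3 UMIs of Csf1r, Flt3, Cd209a, Xcr1 and Fcgr3, fewer than 5 of the C1q genes and fewer than 2 each of the B and T cell rule genes, had 4077, 7174, 5115 and 5896.

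A mature B cell carries one rearranged antibody, made of a heavy chain of the mu or delta class and a kappa or lambda light chain, as its antigen receptor. The B cell takes up antigen through that receptor and presents peptides of it on MHC class II molecules to CD4+ T cells. In a healthy kidney B cells are rare, and most recirculate between blood, lymph and secondary lymphoid organs.

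Most members matched the label by genes that the rule did not use. Ighm, the mu heavy chain, was detected in 38, 38, 33 and 49 of the members in library order, a share of 90.5%, 90.5%, 89.2% and 89.1%. All 28 genes of a list of B cell identity genes had UMIs in the members, which together took 0.315%, 0.668%, 0.495% and 0.504% of B cell UMIs against 0.0321% to 0.0402% of T cell UMIs. Many defining genes of other leukocytes were absent: Cd3d, Cd3e, Cd3g, Trbc2, Cd4, Cd8a, Nkg7, C1qa, C1qb, C1qc, Xcr1, Cd209a, S100a8 and S100a9 were at 0 UMIs in the members of every library, of which the rule itself limits the Cd3 and C1q genes. The 13 T cell markers summed to 1, 0, 7 and 2 UMIs, led by Il7r, and the 12 macrophage, monocyte and dendritic cell markers to 4, 18, 9 and 3, led by Cd14. The 6 natural killer cell markers summed to 0, 0, 3 and 0 UMIs, all of Ncr1, and the 5 neutrophil markers to 0, 1, 0 and 0, of Cxcr2. Of the 176 members 3 had no UMI of Ighm, Ighd, Igkc or a lambda gene, 1 in WT-ND and 2 in SP-ND, and the 2 of SP-ND also had no Cd74 or H2-Aa UMI.

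The summed UMIs of Ms4a1, Cd79a and Cd79b in a member had a median of 5 in WT-ND and 9.5 in WT-HFD, against 7 in SP-ND and 8 in SP-HFD, so that the WT-ND members lay closest to the threshold of 3. Exactly 3 UMIs were found in 9, 2, 3 and 3 members. Just outside the threshold, at 2 UMIs, were 15, 13, 4 and 7 barcodes, of which 53.3%, 15.4%, 50% and 57.1% had an Ighm UMI. No barcode sequence was taken as a B cell in more than 1 library, and 1 WT-ND member had a barcode that also occurred in SP-HFD.

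B cells made up 0.386% of kept barcodes in WT-ND (42 of 10869, exact Clopper-Pearson interval 0.279% to 0.522%) and 0.433% in WT-HFD (42 of 9700, 0.312% to 0.585%). In SP mice the share was 0.548% on ND (37 of 6754, 0.386% to 0.754%) and 0.737% on HFD (55 of 7466, 0.555% to 0.958%). Neighbours in this order had overlapping intervals, and those of WT-ND and SP-HFD did not overlap. The order depended on the denominator. Of B and T cells together, B cells were 36.52% (WT-ND) and 30.43% (WT-HFD), against 37.0% (SP-ND) and 27.36% (SP-HFD), with intervals that overlapped among all 4 libraries. Ptprc, a leukocyte gene, had a UMI in 12, 28, 22 and 23 members in library order. Of all kept barcodes with a Ptprc UMI these members were 1.417%, 3.341%, 3.099% and 2.635%, again with overlapping intervals.

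For each B cell there were 1.74, 2.29, 1.7 and 2.65 T cells in library order, with the higher values in both HFD libraries. Monocytes and dendritic cells stood at 1.98, 3.07, 3.3 and 2.36 per B cell. Plasma cells, here barcodes with at least 10 Mzb1 UMIs, varied far more than B cells did: 25 and 73 in WT mice on ND and HFD, and 1 and 116 in SP mice, or 0.595, 1.74, 0.027 and 2.11 per B cell. The B cell share thus differed least between the libraries and the plasma cell share most, as the plot of cell shares shows.

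**Figure D1:**
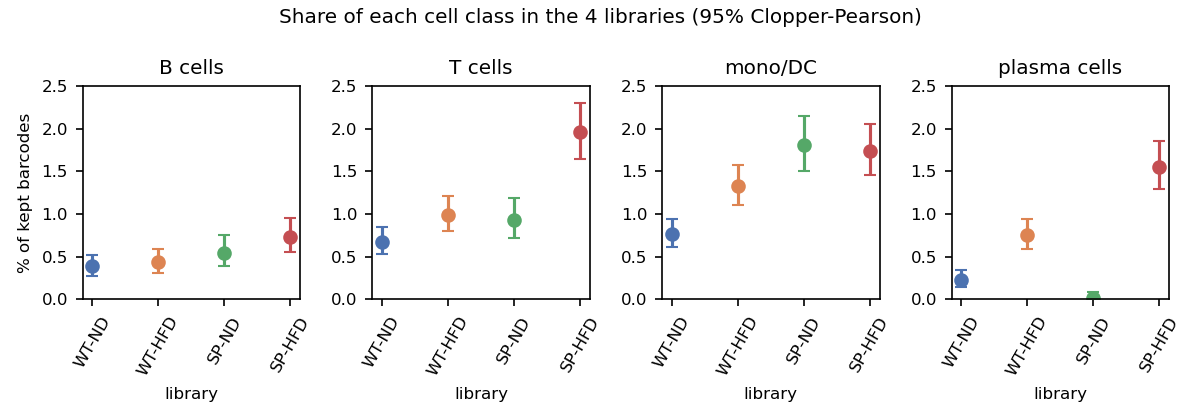
Shares of kept barcodes (percent, y axis) taken by B cells, T cells, monocytes and dendritic cells without C1q, and plasma cells in the 4 libraries (x axis), with exact 95% Clopper-Pearson intervals for counting error. B cells lie between 0.386% and 0.737% in all 4 libraries, while plasma cells range from 1 barcode in SP-ND to 116 in SP-HFD.

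A few members were far deeper than the rest, and RNA of kidney parenchyma was found in deep and in ordinary members. Members with over 2000 detected genes numbered 6, 2, 2 and 4 in library order, and they held 54.4%, 20.5%, 25.3% and 24.0% of all B cell UMIs of their library. The deepest member, of WT-ND, had 29823 UMIs, of which 13.0% were on proximal tubule genes, and 12 Igkc UMIs. The proximal tubule list, led by Kap, took 3.46%, 0.373%, 0.349% and 0.735% of B cell UMIs, against 4.03%, 2.91%, 1.45% and 1.5% of the UMIs of all kept barcodes. With the members limited to 2000 genes it took 1.92% in WT-ND and 0.441%, 0.452% and 0.428% in the other libraries, and the median member had 2.0%, 0.413%, 0.344% and 0.384%. At least 1% of UMIs on this list was found in 32, 0, 1 and 3 members, of which 31, 0, 1 and 2 had up to 2000 genes. A limit of 2000 genes thus leaves the higher proximal tubule share of WT-ND in place. The other classes also had their highest share in WT-ND. It was 2.23%, 0.891%, 0.233% and 0.305% of T cell UMIs, and 1.12%, 0.423%, 0.305% and 0.188% of those of monocytes and dendritic cells. The distal and collecting duct list, led by the water channel gene Aqp2, took 0.374%, 0.0126%, 0.302% and 0.0594%, and among members with up to 2000 genes 0.0367%, 0.0149%, 0.0291% and 0.0163%. Emcn, an endothelial gene, had 11, 77, 0 and 0 UMIs, the 77 in 1 cell. No doublet caller was run here on the deposited matrices, and how much of these UMIs came from second cells in a droplet or from free RNA was not tested. Comparisons between libraries are therefore given for all members, for the 36, 40, 35 and 51 members with up to 2000 genes, or for both. The limit of 2000 genes was chosen after the deep members were seen.

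**Figure D2:**
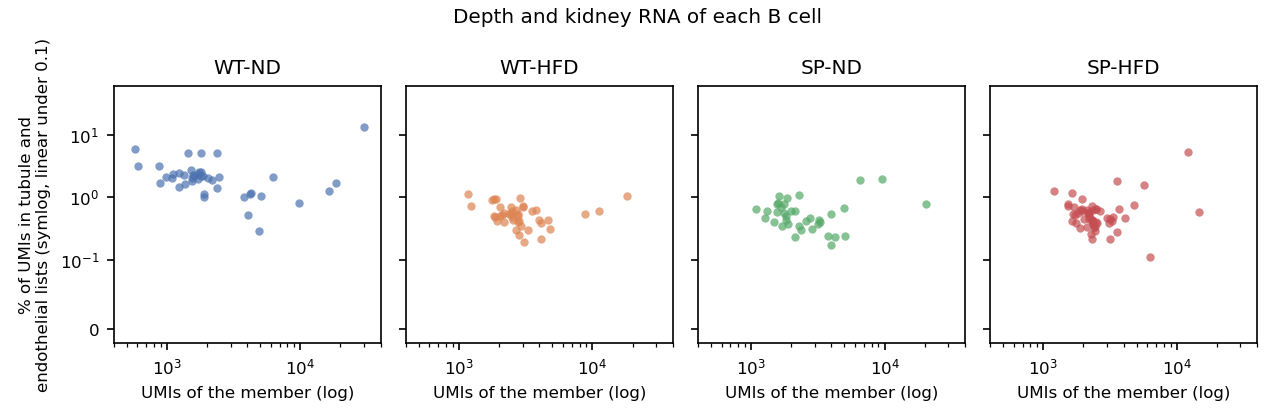
Total UMIs of each of the 176 B cells (x axis, log scale) against the percent of its UMIs on proximal tubule, thick ascending limb, distal and collecting duct, and endothelial genes (y axis, linear near 0 and log above), coloured by library. Most members lie near 2000 UMIs, and a few lie far to the right, up to 29823 UMIs.

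The identity of the B cells was compared with that of T cells from the same 4 libraries. UMIs were summed over cells per library and cell class, and the sums were compared with edgeR's quasi-likelihood test with the library as a block and Benjamini-Hochberg adjustment over all genes tested. The libraries that serve as replicates were of different diets and genotypes. Of 2124 genes tested, 115 were higher in B cells (5.41%) and 131 lower (6.17%) at an adjusted p under 0.05. With a limit of 3000 detected genes on kept barcodes, which left out 7 members, 420 of 1734 genes tested were called (24.2%). Without that limit 11.6% were called. Fcmr, the receptor for the constant part of IgM, reached 155, 335, 301 and 353 CPM (UMIs per 1000000 UMIs of the class in that library) in B cells in library order and was at 0 UMIs in all T cells. The pooled B cell level was at least 136-fold higher than the 3 UMIs that a count of 0 over all T cells allows (edgeR adjusted p = 5.017e-05). Pax5, the transcription factor that holds cells to the B lineage, stood at 96.6, 168, 176 and 136 CPM against 0 in T cells, at least 67.5-fold (edgeR adjusted p = 0.0002095).

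Ebf1, a transcription factor that acts with Pax5, reached 432, 1249, 644 and 972 CPM in B cells and 15.5 to 27.8 CPM in T cells, so that the lowest B cell value was far above the highest T cell value. Fcer2a (the low-affinity IgE receptor CD23) was at least 80.7-fold and Bank1 (a scaffold of B cell receptor signalling) at least 109-fold above the count of 0 in T cells. Syk, the kinase next to the receptor, and Siglecg, an inhibitory lectin, were likewise at 0 in T cells and were at least 76.6-fold and 51.0-fold higher. Bcl11a, a transcription factor of early B cell development, was at least 43.6-fold higher (edgeR adjusted p = 0.001131). Vpreb3, which binds newly made receptor chains, was higher by a log2 fold change of 7.52 (edgeR adjusted p = 8.65e-06). Of the 28 identity genes, 19 passed the filter on low counts, which a gene can pass through its B cell level alone, and 18 of the 19 were higher. Their median log2 fold change was 5.67 with genes at 0 in T cells set to that bound, beside 0.04 over all genes tested. The exception was Ikzf3 (Aiolos), at 32.2, 90.7, 151 and 74.3 CPM in B cells and 32.1, 47.0, 61.8 and 59.6 CPM in T cells (log2 fold change 0.70, edgeR adjusted p = 0.2014), a gene that also acts in T cells.

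The genes lower in B cells began with those of T and NK cells. Trbc2, the constant part of the T cell receptor beta chain, and Nkg7, a cytotoxic granule gene, had 0 UMIs in B cells and at least 163-fold and 84.5-fold more in T cells. The chemokine Xcl1, the adaptor Skap1 and the costimulator Icos were also at 0 in B cells and at least 73.4-fold, 44.4-fold and 43.7-fold higher in T cells, and the chemokine Ccl5 had a log2 fold change of −8.67. Of 13 listed T cell markers 7 passed the filter on low counts, which they can do through their T cell level alone, and these were lower, beside 6.17% of all genes.

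Against monocytes and dendritic cells 3599 genes were tested, of which 215 were higher in B cells (5.97%) and 418 lower (11.6%) at an edgeR adjusted p under 0.05. With the limit of 3000 genes on kept barcodes, 982 of 2790 genes tested were called (35.2%). Fcmr, Vpreb3 and Pax5 were at 0 UMIs in all monocytes and dendritic cells and were at least 305-fold, 235-fold and 152-fold higher in B cells. Pou2af1, a coactivator of octamer-binding factors, was at least 97.9-fold higher. Ly6d, Cd55 and Cd2 were higher by log2 fold changes of 6.74, 7.12 and 7.26. Of the identity list 22 genes passed the filter, which their B cell level alone allows, and 22 were higher. The lowest were S100a9 and S100a8, alarmins of neutrophils and monocytes, with 0 UMIs in B cells and at least 60.8-fold and 38.5-fold more in the other class, and the lectins Mgl2 and Clec4b1, the chemokine Ccl9 and Fst, also at 0 in B cells and from 26.0-fold (Clec4b1) to 64.9-fold (Mgl2) more, at the least, in the other class. Of kidney genes, 4 of 10 tested proximal tubule genes and 3 of 5 distal and collecting duct genes were higher in B cells as well. Against T cells 0 of 10 and 1 of 4 were higher, beside 5.41% of all genes. The proximal tubule count against T cells was also 0 at an unadjusted edgeR p under 0.05 and with DESeq2. The heat map of levels shows this split by class.

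**Figure D3:**
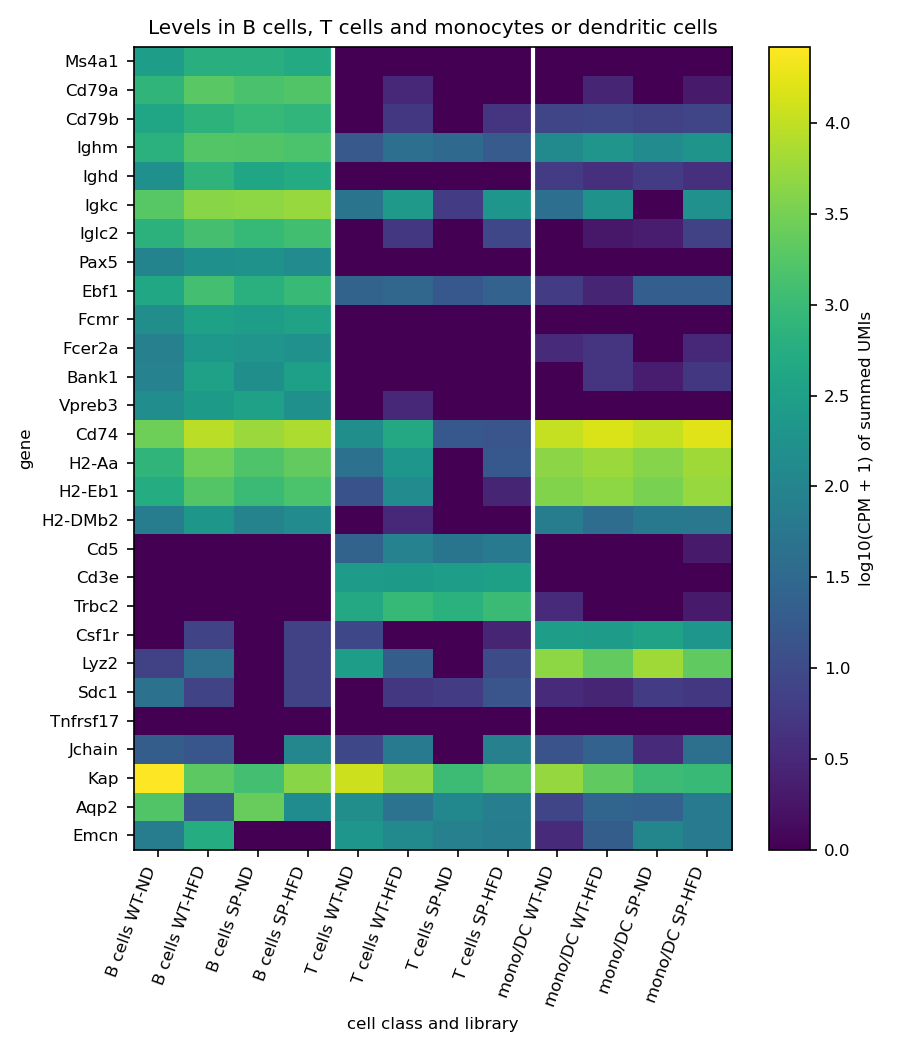
Levels of 28 genes (rows) in the summed B cells, T cells, and monocytes and dendritic cells of each library (columns), as log10 of CPM plus 1. B cell identity and immunoglobulin genes are highest in the B cell columns, and Cd74 and H2-Aa are high in B cells and higher still in monocytes and dendritic cells.

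The octamer ATGCAAAT, the site of the Oct factors with which Pou2af1 acts, was searched on both strands of the RefSeq GRCm38.p6 promoters, from 250 bases before to 50 after each gene start. It was in 570 of 32851 promoters (1.74%) and in 2 of the 22 identity genes with a promoter in the table, Blnk (an adaptor of receptor signalling) and Vpreb3. Both windows are shown 5′ to 3′ on the strand of the gene, where the octamer reads in reverse complement, with its letters in capitals. The Blnk window is chr19:40994304-40994391 on the minus strand and the Vpreb3 window chr10:75948215-75948302 on the plus strand, and the match starts 130 and 45 bases before the gene start.
Blnk: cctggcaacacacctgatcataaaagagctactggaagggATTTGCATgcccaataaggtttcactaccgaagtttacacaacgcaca
Vpreb3: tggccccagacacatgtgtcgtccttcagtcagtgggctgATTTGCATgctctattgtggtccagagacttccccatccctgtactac
A match describes these letters only. Vpreb3 had 23, 37, 40 and 27 UMIs and Blnk 15, 10, 15 and 12 in the members in library order.

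The heavy chain transcripts were mostly of the mu and delta classes. Ighm (chr12:113418558-113422730, minus strand) had 104 UMIs in WT-ND and 244 in WT-HFD, against 194 in SP-ND and 239 in SP-HFD, or 670, 1702, 1623 and 1479 CPM. Ighd (chr12:113406604-113416324, minus strand), made from the same rearranged gene by alternative splicing once a B cell matures, had 26, 106, 50 and 83 UMIs, or 168, 740, 418 and 514 CPM, and 0 UMIs in all T cells. Both genes were lowest in WT-ND. Ighm and Ighd were found together in 104 of 176 members, Ighm alone in 54, Ighd alone in 10 and neither in 8.

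Ighd was detected in 40.5% of the WT-ND members (17 of 42, interval 25.6% to 56.7%) and 83.3% of those of WT-HFD (35 of 42, 68.6% to 93.0%). In SP mice it was detected in 64.9% on ND (24 of 37, 47.5% to 79.8%) and 69.1% on HFD (38 of 55, 55.2% to 80.9%). After each cell was thinned to 1000 UMIs, with 5 shallower WT-ND members and 0, 1, 2 and 3 T cells left out, the shares were 21.6%, 52.4%, 43.2% and 32.7%, and 0% in the T cells of every library, with upper limits of 2.55% to 5.87%. The WT-ND share was the lowest in both cases, and the order of the other libraries changed with thinning. Constant genes of switched classes were rare: at least 1 UMI of Ighg1, Ighg2b, Ighg2c, Ighg3 or Ighe was in 4, 3, 4 and 3 members, with Ighg3 the most abundant at 4, 5, 5 and 4 UMIs. Igha was found in 16.7%, 16.7%, 0% and 29.1% of the members and in 9.59%, 21.9%, 3.17% and 39.7% of T cells, which should lack it and were deeper. After thinning to 1000 UMIs a cell the shares were 16.2%, 4.76%, 0% and 10.9% of B cells and 4.11%, 9.47%, 0% and 16.8% of T cells. In the libraries other than WT-ND the thinned B cell share was at or below that of T cells and is not read as expression. In WT-ND it was above, with intervals that overlap (6.19% to 32.0% in B cells and 0.856% to 11.5% in T cells).

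Kappa and lambda light chain transcripts were found in the same cells. Igkc (chr6:70726435-70726966, plus strand) had 294, 615, 562 and 867 UMIs in library order. Iglc2 (chr16:19198396-19200351, minus strand) had 105, 189, 110 and 191, Iglc1 42, 66, 65 and 51, and Iglc3 37, 37, 43 and 74. The transcripts of Iglc2 and Iglc3 were identical at 95.1% of 451 aligned bases, so that the split between them is uncertain, and the lambda genes were summed. The lambda genes held 38.5%, 32.2%, 27.9% and 26.8% of the light chain UMIs of the B cells, counted as transcript ends with no correction for length. At least 1 UMI of both kinds was found in 152 of 176 members.

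Among the 170 members with at least 3 light chain UMIs, 35 had at least 90% of them on Igkc, 35 had as many or more on lambda genes as on Igkc, and 100 lay in between. The in-between class held 55.3% of the typed WT-ND cells (interval 38.3% to 71.4%) and 66.7% of those of WT-HFD (50.5% to 80.4%). It held 60.0% in SP mice on ND (42.1% to 76.1%) and 54.5% on HFD (40.6% to 68.0%). The lambda class held 28.9%, 16.7%, 17.1% and 20.0%, with intervals that overlapped among all libraries. Where at least 10 light chain UMIs were required, the in-between class was 58.3%, 62.5%, 69.2% and 55.6%. The plot of light chain UMIs shows this spread cell by cell.

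Plasma cells of the same libraries had another ratio. Lambda genes held 1.15%, 1.4%, 0.433% and 3.43% of their light chain UMIs, and 25 of 25, 73 of 73, 1 of 1 and 112 of 116 plasma cells were in the kappa class, although each of them also had at least 1 lambda UMI. In T cells, which make no light chain, Igkc stood at 48.2, 239, 5.15 and 208 CPM against 1894, 4291, 4703 and 5367 CPM in B cells, and Iglc2 at 0, 4.27, 0 and 7.69 CPM against 676, 1319, 920 and 1182. Lambda genes held from 0% to 6.09% of the few light chain UMIs in T cells. The lambda share of the B cells was thus above that of the T cells and of the plasma cells in all 4 libraries. How reads of the C3H strain map to the light chain genes of the C57BL/6J reference, and whether 2 B cells shared a droplet, was not tested.

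**Figure D4:**
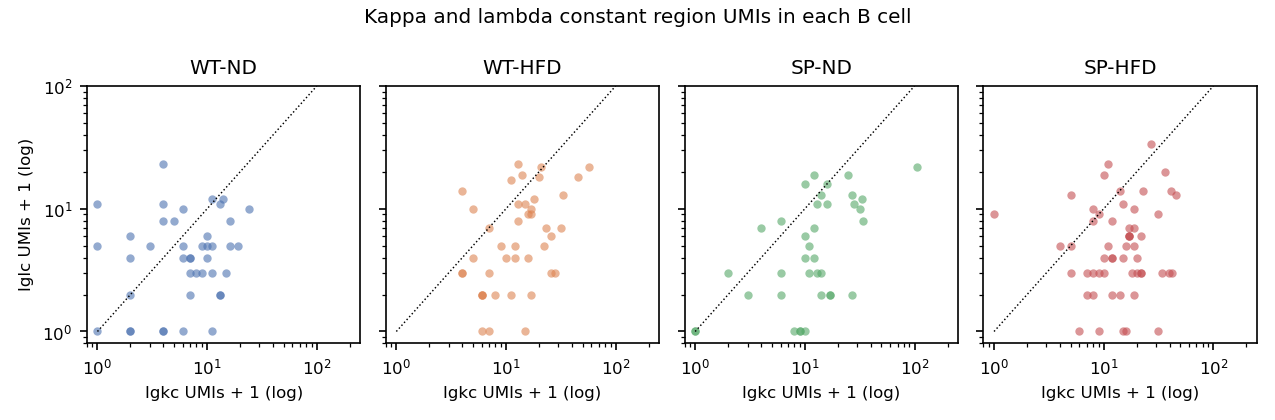
Igkc UMIs plus 1 (x axis, log scale) against lambda constant gene UMIs plus 1 (y axis, log scale) in each of the 176 B cells, coloured by library, with a dotted line at equal counts. Members spread on both sides of the line, and 152 of 176 have at least 1 UMI of each kind.

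The other parts of the receptor pathway were measured at low depth. Of a list of 22 receptor signalling genes, 8 passed the filter on low counts against T cells, which their B cell level alone allows, and 5 were higher, beside 5.41% of all genes, namely Syk, Siglecg, Lyn, Cd72 and Blnk. Lyn, a Src-family kinase, had 12, 24, 14 and 18 UMIs in library order and was higher by a log2 fold change of 4.29. Cd72, an inhibitory receptor, was higher by 2.94. Btk, the kinase downstream of Syk, had 3, 6, 7 and 5 UMIs, and Plcg2, which it activates, 8, 8, 6 and 5. At these counts the intervals of the Btk and Plcg2 ratios included 0 in both diet pairs. The list is led by Cd79a and also holds Cd79b, both genes of the rule. Both are among the genes counted below between libraries, so those counts are in part set by the rule. They are given as a description and are not read as a difference in the pathway. Over all members 14 of 15 measured genes of the list were higher in WT-HFD than in WT-ND, beside 51.2% of all genes. Of the 15, 7 had an interval above 0, beside 16.4% of all genes. Between the SP libraries 2 of 15 were higher in SP-HFD, beside 45.9%, and 0 had an interval above 0, beside 7.11%. In members with up to 2000 genes 14 of 17 were higher in WT-HFD and 2 of 17 in SP-HFD, beside 53.8% and 44.7% of all genes. In WT 2 had an interval above 0, beside 9.4% of all genes, and in SP 2 had an interval below 0, beside 5.88%.

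Genes that mark B cell subsets were read as levels. Of the follicular genes, Fcer2a had 13, 33, 24 and 28 UMIs and the homing receptor Cxcr5 8, 7, 6 and 10. Cr2 (CD21), which is high in marginal zone and follicular cells, had 6, 5, 6 and 14. The B-1 marker Cd5 was at 0 in every library, and Spn (CD43) had 1, 0, 3 and 0 UMIs. Of the 10 listed B-1 genes 8 had UMIs, with 56, 98, 164 and 32 in all. They were led by S100a6 with 20, 61, 134 and 10, of which 20, 1, 1 and 7 were in members with up to 2000 genes. These S100a6 UMIs were in few cells, 2.38%, 4.76%, 5.41% and 9.09% of the members. Germinal centre genes were near 0: Mki67 had 0, 0, 1 and 2 UMIs, Bcl6 had 3, 3, 4 and 4, and Rgs13 was at 0. Rag1, Rag2 and Igll1 of developing B cells and Itgax and Itgam of age-associated B cells were also at 0. Of 9 listed immature or transitional genes 6 had UMIs, 50, 58, 54 and 68 in all, led by Vpreb3. Of 8 listed memory or age-associated genes 6 had UMIs, 8, 16, 9 and 15 in all, led by Zeb2. The plasma cell genes Tnfrsf17 (BCMA) and Derl3 were at 0, and Xbp1 had 8, 13, 11 and 8 UMIs. The 11 listed plasma cell genes had 53, 97, 69 and 113 UMIs in all, led by Mzb1, which the rule limits. No count of 0 at this depth shows that a gene is not expressed.

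MHC class II genes were abundant in the B cells. Cd74, the invariant chain that guides class II molecules to the peptide-loading compartment, had 430 UMIs in WT-ND and 1330 in WT-HFD, against 686 in SP-ND and 1226 in SP-HFD, or 2770, 9280, 5740 and 7589 CPM. In T cells it stood at 161, 459, 15.5 and 13.5 CPM, and in monocytes and dendritic cells at 10800, 14710, 10520 and 15770 CPM. It was higher in B cells than in T cells by a log2 fold change of 5.89 (edgeR adjusted p = 0.0006084) and lower than in monocytes and dendritic cells by −1.06 (adjusted p = 0.01409), a call that was lost without the library block (−0.93). Of 14 listed class II genes 7 passed the filter on low counts against T cells, which their B cell level alone allows, and these were higher in B cells, with Ctss the smallest at 1.69, and the Ctss call was lost without WT-HFD (1.46), SP-ND (1.55) or SP-HFD (1.35).

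The class II genes divided when set against monocytes and dendritic cells. Of 11 tested, 8 were lower in B cells, beside 11.6% of all genes, among them H2-Aa, H2-Ab1 and H2-Eb1, the chains of the surface molecules, with log2 fold changes of −1.51, −1.65 and −1.86. H2-DMb1, a chain of the peptide exchanger DM, was lower by −3.02, Ctss, the protease that trims the invariant chain, by −2.24, and Ciita, the class II transactivator, by −1.34. The Ciita call was lost without WT-ND (−1.12), WT-HFD (−1.16) or SP-HFD (−1.45) and with at least 5 B cell gene UMIs (−1.25). That of H2-DMa (−1.19) was lost without SP-ND (−1.18), SP-HFD (−1.29) or the library block (−1.04) and with at least 5 such UMIs (−0.85). Of the 11, H2-DMb2 and H2-Ob were higher, beside 5.97% of all genes, by 1.27 and 1.30 (edgeR adjusted p = 0.04142 and 0.02481). H2-DMb2, the other DM beta chain gene, stood at 70.9, 216, 92.0 and 136 CPM in B cells and 69.5, 37.5, 59.8 and 58.9 CPM in monocytes and dendritic cells. H2-Ob, the beta chain of DO, an inhibitor of DM known from B cells, stood at 77.3, 223, 167 and 92.9 CPM against 69.5, 59.6, 39.1 and 65.2. The H2-DMb2 call was lost with DESeq2 (1.22), with 5% of the profile of all kept barcodes subtracted (1.25), and without the WT-HFD (0.74), SP-ND (1.50) or SP-HFD (1.23) library, and the H2-Ob call without WT-HFD (1.00) or SP-ND (1.09). H2-Oa, the other chain of DO, did not pass the test (log2 fold change 0.08, adjusted p = 0.9082). Reads of the C3H strain at these polymorphic genes were counted on a reference of another strain, and the effect was not tested.

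The class II genes share a promoter element whose Y box is the reverse complement of CCAAT. The letters GATTGG, searched on both strands of the same RefSeq promoters, were in 5292 of 32851 (16.1%) and in 8 of the 9 class II list genes with a promoter in the table, all but Ctss. The windows of a surface alpha chain, a surface beta chain and the 2 genes that were higher in B cells are shown 5′ to 3′ on the strand of the gene, with GATTGG in capitals. They lie on GRCm38.p6 at chr17:34287827-34287912 (H2-Aa, minus strand), chr17:34305767-34305852 (H2-Eb1, plus strand), chr17:34238807-34238892 (H2-Ob, plus strand) and chr17:34145118-34145203 (H2-DMb2, plus strand), and the match in capitals starts 49, 60, 58 and 91 bases before the gene start. The H2-Eb1 window also holds the letters on the other strand, left in lower case.
H2-Aa: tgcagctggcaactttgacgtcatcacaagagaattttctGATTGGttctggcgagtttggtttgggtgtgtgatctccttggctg
H2-Eb1: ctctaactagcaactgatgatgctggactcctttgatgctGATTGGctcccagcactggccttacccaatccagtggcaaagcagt
H2-Ob: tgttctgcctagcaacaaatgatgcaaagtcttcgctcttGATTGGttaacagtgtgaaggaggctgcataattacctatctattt
H2-DMb2: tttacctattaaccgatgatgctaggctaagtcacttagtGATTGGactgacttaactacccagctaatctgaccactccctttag
The match is a description of the reference and was not set against any binding data.

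Trafficking genes were compared with both classes. Against monocytes and dendritic cells 4 of 14 tested genes were lower, beside 11.6% of all genes, namely the adhesion receptor Cd44 and the integrin chains Itgal, Itgb1 and Itgb7, and 6 were higher, beside 5.97%, among them the lymphoid homing receptors Ccr7 and Cxcr5, the egress receptor S1pr1 with its regulator Klf2, and Cd69, which opposes S1pr1. Ccr7 stood at 148, 474, 243 and 458 CPM in B cells and at 9.93, 12.5, 0 and 1.05 CPM in monocytes and dendritic cells. Against T cells 0 of 11 were higher and 2 lower, the integrin chain Itgal and Rgs1, beside 5.41% and 6.17% of all genes, so that the count of 0 is near the share over all genes. At an unadjusted edgeR p under 0.05, 2 were higher and 3 lower, and DESeq2 called 0 and 2. Rgs1, a regulator of chemokine receptor signalling, stood at 12.9, 314, 16.7 and 223 CPM in B cells and at 462, 1064, 541 and 604 CPM in T cells (log2 fold change −2.64, edgeR adjusted p = 0.008763). Rgs1 was low in the B cells of both ND libraries and high in those of both HFD libraries.

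The diet comparison asked how B cells differed between HFD and ND mice of the same genotype. Between the WT libraries, 947 of 2539 genes with a mean of at least 50 CPM (37.3%) differed by a log2 ratio of at least 1 in size, 436 higher in WT-HFD (17.2%) and 511 lower (20.1%). Between the SP libraries 520 of 2533 did so (20.5%), 211 higher in SP-HFD (8.33%) and 309 lower (12.2%). These large shares are the background for every ratio below. The 6 smallest ratios of the WT pair included kidney genes, such as Aqp2 with 259 UMIs in WT-ND and 2 in WT-HFD (log2 ratio −6.90, interval −9.96 to −5.03; 1669 CPM in WT-ND over all members and 42.4 CPM among those with up to 2000 genes). Among members with up to 2000 genes, 30.1% of 2247 genes (WT) and 21.2% of 2245 (SP) passed the same fold, 15.9% and 7.53% higher and 14.2% and 13.7% lower. The counting interval of the ratio excluded 0 for 34.3% (WT) and 14.3% (SP) of genes over all members, and for 17.4% and 11.3% among those with up to 2000 genes.

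Rgs1 was among the 6 largest ratios in both genotypes. It had 2 UMIs in WT-ND and 45 in WT-HFD (log2 ratio 4.61, interval 2.67 to 7.70), and 2 in SP-ND and 36 in SP-HFD (3.73, 1.78 to 6.84). Among members with up to 2000 genes the log2 ratios were 3.52 and 3.59. Rgs1 was detected in 4.76%, 33.3%, 5.41% and 23.6% of the members, and in 2.7%, 19.0%, 5.41% and 10.9% after thinning to 1000 UMIs. In T cells the log2 ratio was 1.20 in WT and 0.16 in SP, and in monocytes and dendritic cells 0.78 and 0.43.

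Some single genes known from B cell activation, chosen after their values were seen, were higher in both HFD libraries, while the lists they come from were not uniformly so. In members with up to 2000 genes the NF-kB list had 6 of 6 genes higher in WT-HFD and 3 of 6 in SP-HFD (medians 1.41 and 0.04), and the costimulation and survival list 8 of 9 and 5 of 9 (0.92 and 0.10), beside 53.8% and 44.7% of all genes. Over all members the NF-kB list had 6 of 7 and 5 of 7 higher (medians 1.57 and 0.27). The costimulation and survival list had 5 of 5 and 4 of 5 (1.22 and 0.03), beside 51.2% and 45.9%. In T cells 6 of 6 NF-kB genes were higher in WT-HFD and 2 of 6 in SP-HFD. The costimulation and survival list had 4 of 9 higher in each pair there, beside 59.2% and 49.8% of all genes. In monocytes and dendritic cells the NF-kB list had 6 of 6 and 3 of 6 higher. The costimulation and survival list had 8 of 9 and 6 of 9 there, beside 53.4% and 54.0%. Cd83, a surface protein of activated B cells that stabilises class II molecules, had 21, 75, 18 and 75 UMIs in library order, and among members with up to 2000 genes its log2 ratio was 1.26 in WT (interval 0.51 to 2.07) and 1.46 in SP (0.69 to 2.30). Nr4a1, an immediate early gene of receptor signalling, had 48, 145, 24 and 101 UMIs, with log2 ratios of 1.68 (1.09 to 2.32) and 1.69 (0.99 to 2.45) among those members. In T cells the Nr4a1 ratio was 1.13 in WT and −0.23 in SP. Cd69, an early activation marker, had 16, 51, 20 and 56 UMIs, with log2 ratios of 1.79 (0.95 to 2.70) and 1.05 (0.29 to 1.87) over all members. The feedback inhibitors of NF-kB signalling Tnfaip3 and Nfkbid had 5, 21, 3 and 17 and 4, 26, 3 and 19 UMIs. Both ND libraries were low and both HFD libraries high for each of these genes, and no ratio was set against a spread between mice. The median member had 9.73%, 5.33%, 9.06% and 8.73% mitochondrial UMIs in library order. Among members with up to 2000 genes mt-Atp6, mt-Atp8, mt-Co1, mt-Nd1, mt-Nd2 and mt-Nd3 had intervals below 0 in both diet pairs. A part of RNA quality in these ratios was not tested.

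Heat shock genes were also higher in both HFD libraries. Dnajb1, a cochaperone of HSP70, had 24, 92, 14 and 105 UMIs, with log2 ratios of 2.16 in WT (interval 1.28 to 3.16) and 2.30 in SP (1.45 to 3.27) among members with up to 2000 genes. All 9 heat shock genes were higher in WT-HFD and all 9 in SP-HFD among those members, with intervals above 0 for 8 and 6 and medians of 1.23 and 0.46, beside 0.10 and −0.11 over all genes, of which 53.8% and 44.7% were higher. An interval above 0 was found for 9.4% and 5.39% of all genes. Over all members 9 of 9 heat shock genes were higher in WT-HFD and 8 of 9 in SP-HFD, beside 51.2% and 45.9%. In monocytes and dendritic cells 9 of 9 were also higher in both HFD libraries, beside 53.4% (WT) and 54.0% (SP) of all genes, and in T cells 8 of 9 in WT and 4 of 9 in SP, beside 59.2% and 49.8%. Heat shock and AP-1 genes are known to respond to tissue dissociation, and with 1 library per condition diet and preparation cannot be told apart.

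The AP-1 and immediate early genes depended on which members were counted. Fos had 134, 145, 41 and 108 UMIs in library order, and its WT log2 ratio was 0.23 (interval −0.12 to 0.58) over all members and 1.50 among members with up to 2000 genes. Egr1 had 134, 82, 22 and 71 UMIs, and its WT log2 ratio changed from −0.59 to 1.94. Among members with up to 2000 genes 14 of 14 listed genes were higher in WT-HFD and 13 of 14 in SP-HFD, with medians of 1.26 and 0.79, against 53.8% and 44.7% of all genes. Over all members 10 and 13 of 14 were higher, beside 51.2% and 45.9%. In T cells 14 of 14 were higher in WT-HFD and 0 of 14 in SP-HFD, beside 59.2% and 49.8% of all genes. In monocytes and dendritic cells 11 of 14 and 10 of 14 were higher, beside 53.4% and 54.0%.

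Class II genes were higher in WT-HFD, with a smaller ratio in the SP pair. Over all members 9 of 9 measured genes were higher in WT-HFD, each with an interval above 0 and with a median log2 ratio of 1.68, and 7 of 9 in SP-HFD with a median of 0.41, beside 51.2% and 45.9% of all genes. In WT 16.4% of all genes had an interval above 0. In members with up to 2000 genes 9 of 10 were higher in WT-HFD, 6 with an interval above 0 and with a median of 1.00, and 7 of 10 in SP-HFD, 4 with an interval above 0 and with a median of 0.32, beside 53.8% and 44.7% of all genes higher and 9.4% and 5.39% with an interval above 0. In T cells 6 of 10 were higher in WT-HFD, 4 with an interval above 0 and with a median of 1.53, and 2 of 10 in SP-HFD, beside 59.2% and 49.8% of all genes. In monocytes and dendritic cells 6 of 10 were higher in WT-HFD (median 0.25) and 8 of 10 in SP-HFD (median 0.45), beside 53.4% and 54.0%. Other lists moved in the WT pair as well among members with up to 2000 genes: 23 of 28 identity genes were higher in WT-HFD (median 0.57) and 0 of 10 proximal tubule genes (median −2.16), and their part in the class II ratios was not tested. For Cd74 the log2 ratio among members with up to 2000 genes was 1.05 in WT (interval 0.88 to 1.21) and 0.31 in SP (0.17 to 0.45), and for H2-Aa it was 1.15 and 0.43. With at least 5 B cell gene UMIs the SP ratio turned to −0.21 for Cd74 and −0.019 for H2-Ab1. In monocytes and dendritic cells the Cd74 ratio was 0.45 and 0.58. Over all members the WT ratio of Cd74 was 1.74, so it was smaller once members with over 2000 genes were left out of both libraries. The same held for Ighm, at 1.35 over all members and 0.67 without those, and for Ighd, at 2.14 and 1.43, whereas in the SP pair Ighm was at −0.13 and −0.35 and Ighd at 0.30 and 0.15.

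Of 11 measured trafficking genes 7 were higher in WT-HFD and 8 in SP-HFD among members with up to 2000 genes, beside 53.8% and 44.7% of all genes. The interval lay above 0 for 7 and below 0 for 1 in WT, beside 9.4% and 7.93% of all genes. In SP it lay above 0 for 4, beside 5.39%. Over all members 9 of 11 were higher in WT-HFD and 8 of 11 in SP-HFD, beside 51.2% and 45.9%. Ccr7 had 23, 68, 29 and 74 UMIs, and among members with up to 2000 genes its log2 ratio was 0.88 in WT and 0.87 in SP. Klf2 had 145, 404, 198 and 421 UMIs, with 0.70 and 0.59. Gpr183, the oxysterol receptor that positions B cells in follicles, had 20, 58, 10 and 28, with 0.90 and 1.03. Cxcr4, the receptor for CXCL12, had 12, 58, 30 and 38, with 1.77 and −0.16. S1pr1 had 8, 11, 20 and 18 UMIs, and its interval included 0 in both pairs. The plot of diet ratios sets these genes beside the same ratios in the other classes.

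**Figure D5:**
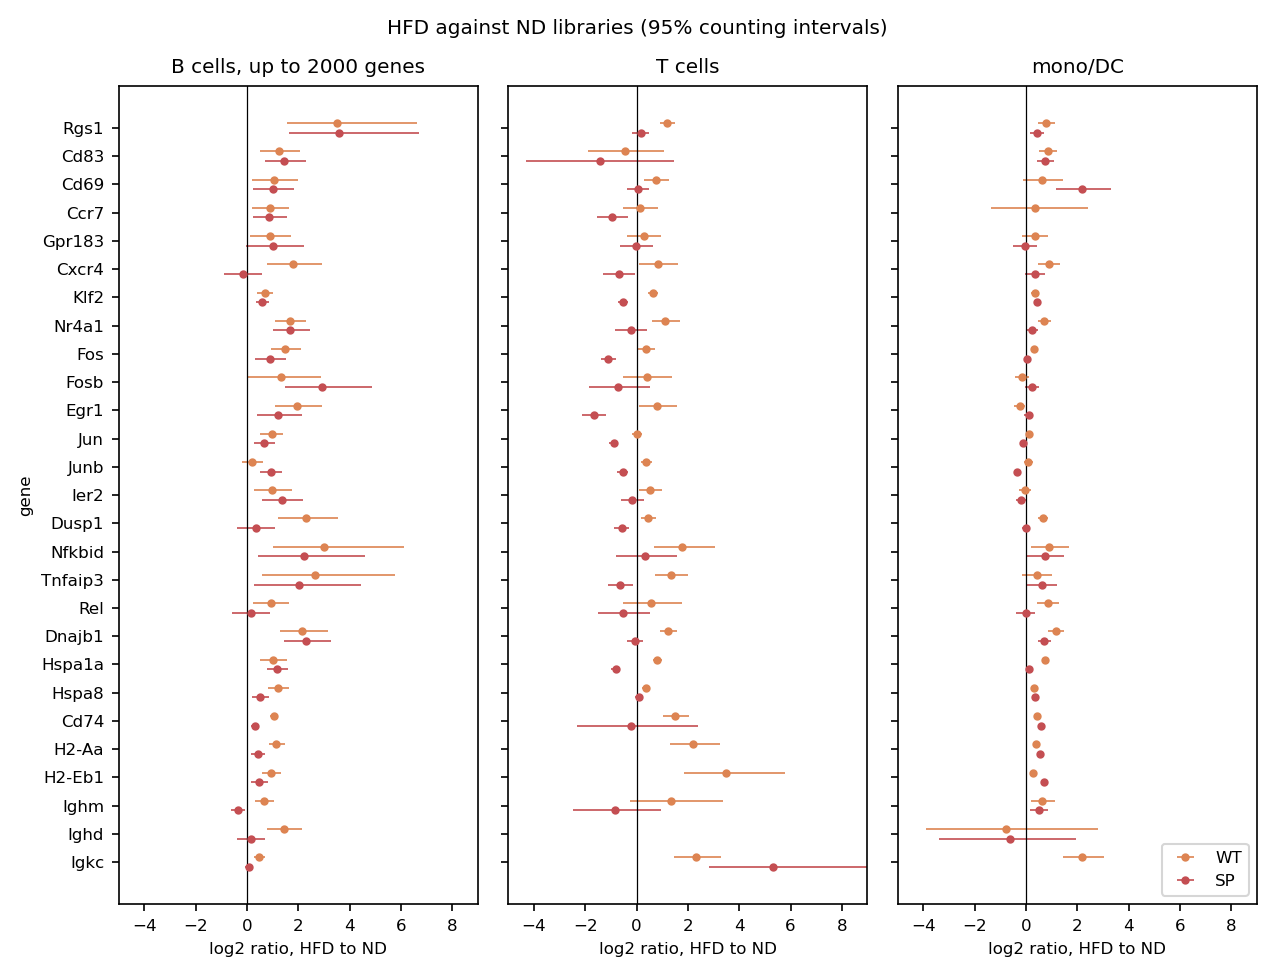
Log2 ratio of HFD to ND (x axis) for 27 genes in B cells with up to 2000 detected genes, in T cells, and in monocytes and dendritic cells, with WT in orange, SP in red and lines for exact 95% counting intervals. Genes at 0 in a library are not drawn. In B cells Rgs1, Dnajb1, Nr4a1 and Cd83 lie right of 0 with their intervals in both genotypes, while in T cells the SP ratios of Nr4a1 and Dnajb1 lie at −0.23 and −0.05.

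The 2 diet pairs share no library, so the genes that passed the fold in both can be counted. Among members with up to 2000 genes, 42 of the 358 genes higher in WT-HFD and of the 169 higher in SP-HFD were the same (11.7% and 24.9%), where 7.53% of all genes were higher in SP-HFD and 15.9% in WT-HFD, among them Rgs1, Cd69, Cd83, Nr4a1, Egr1, Fosb, Tnfaip3, Nfkbid, Dnajb1, Hspa1a, Gem and Ccl3. Over all members 47 were shared, 10.9% of the 430 of the WT pair and 22.3% of the 211 of the SP pair, beside 8.33% and 17% of all genes. Lower in both were 104 genes over all members, 20.4% of those of the WT pair and 33.7% of those of the SP pair, beside 12.2% and 20.2% of all genes, and 84 among members with up to 2000 genes (26.6% and 27.3%, beside 13.7% and 14.1%). Over all members 0 of 11 measured proximal tubule genes were higher in WT-HFD and 8 of 11 in SP-HFD (median 0.36), beside 51.2% and 45.9% of all genes. The SP direction turned in members with up to 2000 genes, where 0 of 10 were higher in WT-HFD and 1 of 10 in SP-HFD (median −1.27, 8 intervals below 0), beside 53.8% and 44.7%. In SP 5.88% of all genes had an interval below 0 among those members. In T cells 0 of 10 proximal tubule genes were higher in WT-HFD and 4 of 10 in SP-HFD, beside 59.2% and 49.8% of all genes. In monocytes and dendritic cells 0 of 10 were higher in either pair, beside 53.4% and 54.0%.

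The genotype comparison on ND set SP-ND against WT-ND, and 710 of 2538 genes passed the fold (28.0%), 294 higher in SP-ND (11.6%) and 416 lower (16.4%). Of 2247 genes in members with up to 2000 genes 24.9% did so, 12.6% higher and 12.3% lower. Its extremes again included kidney genes, such as the urea transporter gene Slc14a2 with 1 UMI in WT-ND and 42 in SP-ND (log2 ratio 5.77, interval 3.21 to 11.11), of which 1 and 0 were in members with up to 2000 genes, and Cdkn1c with 44 and 1 (−5.08, −10.42 to −2.53). Of the proximal tubule list 0 of 11 measured genes were higher in SP-ND over all members (median −1.96), beside 51.5% of all genes. Among members with up to 2000 genes 0 of 10 were higher (median −1.09), beside 52.6%. In T cells and in monocytes and dendritic cells 0 of 10 were higher as well, beside 57.4% and 50.4% of all genes. Cyth1 and Gng2 had 1 UMI each in WT-ND and 10 each in SP-ND. Rgs1 had 2 UMIs in each. Cd83 and Dnajb1 had intervals that included 0. The B cell genes Igkc, Ighm and Vpreb3 were higher in SP-ND by 1.31, 1.28 and 1.18 over all members and by 0.74, 0.76 and 0.53 among those with up to 2000 genes. Of the identity list 23 of 27 measured genes were higher in SP-ND over all members, beside 51.5% of all genes. Among members with up to 2000 genes 16 of 28 identity genes and 2 of 4 light chain genes were higher, beside 52.6%.

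On HFD, SP-HFD against WT-HFD gave 452 of 2537 genes past the fold (17.8%), 224 higher (8.83%) and 228 lower (8.99%), the smallest share of these 4 comparisons between libraries. The split was less even in members with up to 2000 genes, where 16.1% of 2245 genes passed, 5.66% higher and 10.5% lower. Emcn was at 0 in SP-HFD against 77 UMIs in 1 cell of WT-HFD. Cdkn1c had 57 UMIs in SP-HFD and 2 in WT-HFD (log2 ratio 4.66, interval 2.74 to 7.74), and 2 in each among members with up to 2000 genes. Of 14 AP-1 and immediate early genes 3 were higher in SP-HFD, with a median of −0.29, and 2 of 7 NF-kB genes were higher, beside 44.1% of all genes. Of the 14, 6 had an interval below 0, beside 204 of all 2537 genes. In members with up to 2000 genes 4 of 14 (median −0.48) and 0 of 6 were higher, beside 40.3%. There 5 of the 14 had an interval below 0, beside 135 of 2245 genes. In T cells 0 of 14 AP-1 and immediate early genes and 1 of 6 NF-kB genes were higher, beside 44.7% of all genes. In monocytes and dendritic cells these counts were 1 of 14 and 0 of 6, beside 53.4%. Cd83 had 75 UMIs in each (−0.17, −0.65 to 0.31), Cd69 51 and 56 (−0.04, −0.61 to 0.54), and Rgs1 45 and 36 (−0.49, −1.17 to 0.17). Nr4a1 was lower in SP-HFD (−0.69, −1.08 to −0.32), as were Gpr183 (−1.22, −1.93 to −0.55) and Cd74 (−0.29, −0.40 to −0.18), at −0.74, −1.13 and −0.25 in members with up to 2000 genes. Slc5a2 itself is a proximal tubule gene, with 162, 99.6, 22.3 and 23.3 CPM over all kept barcodes, and since a missense mutation need not change the level of its RNA, these values do not check the genotype labels.

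The members also varied among themselves. Clustering of the 176 cells without immunoglobulin, mitochondrial and ribosomal genes gave 4 groups, which are described by their leading genes and not named. The largest, of 84 cells, was led by Dnajb1, Hspa1b, Hspa1a, Nfkbid, Nr4a1 and Myc and held 5, 25, 16 and 38 cells in library order. A group of 47 cells was led by the proximal tubule genes Acsm2, Slc34a1 and Kap, held 28, 5, 12 and 2 cells and had 4.31% of its UMIs on the proximal tubule list. A group of 33 cells was led by Il4i1, Ifi30, Fabp5 and Ly6d, held 3, 11, 7 and 12 cells and had the highest shares of identity and class II UMIs, 0.863% and 1.96%. The last, of 12 cells with a median of 9658.5 UMIs, was led by genes that include Fxyd4, Aqp2 and Cdkn1c and had the lowest share of identity UMIs, 0.155%. The genes that define these groups differ between the libraries in the comparisons above, so the sizes of the groups were not compared.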

How the data were processed

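Kidneys were digested to single cells and sequenced on the 10x Chromium 3′ v3.1 platform. The authors deposited filtered matrices of raw UMI counts per gene and barcode, aligned to mm10. Per the file headers they were made with Cell Ranger 6.1.2, whereas the submitters' processing notes name 2.1.1, and the lowest barcode had 500 UMIs. Total depth was 93142028 (WT-ND), 115117649 (WT-HFD), 111617794 (SP-ND) and 90728590 UMIs (SP-HFD) over 32285 genes.

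The limits of 200 to 5000 genes and under 50% mitochondrial UMIs followed the study's methods, which also name a doublet caller, not run here. Free RNA was not removed. Members, gene lists and tests were chosen with earlier results of these data known. UMIs were summed per library and class, and B cells were compared with T cells and with monocytes and dendritic cells by edgeR 4.0.16 in R 4.3.3 (TMM, filterByExpr, glmQLFTest, library as block, no test for genes of the class rules), tested on simulated data. Plasma cells were not tested, since SP-ND had 1. Conditions were compared as ratios of pooled CPM with exact conditional binomial intervals. A gene at 0 was bounded with 3 counts over the class.

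Named genes were the 6 largest and 6 smallest ratios per contrast among genes with a mean of at least 50 CPM, the 12 largest and 6 smallest fold changes per fit among called genes with at least 100 CPM in the higher class, and members of the lists. Some of these genes are not reported here. Cells were clustered with scanpy 1.11.5 (10 principal components, 15 neighbours, resolution 0.5). Alternatives were DESeq2 1.42.0, no library block, other filters and thresholds, 5% of the library's profile subtracted, and each library left out. The limit of 2000 genes, the minimum of 500 CPM and the plasma cell rule were added after the data were seen.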

Additional observations from a re-analysis of the deposited data

Results flagged for a closer look

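For 9 of the named genes reported here the diet log2 ratio of HFD to ND over all members had a counting interval wholly on one side of 0 in WT mice and on the other side in SP mice. With 1 library per condition this difference was not tested. Of kidney genes, it was −4.47 in WT and 2.57 in SP for Acsm3, −4.34 and 5.40 for Cdkn1c, −2.49 and 3.07 for Cyp2e1, −1.56 and 3.96 for Kcnj15, and −3.16 and 3.37 for Rhcg. Acsm3 and Cyp2e1 were at 0 in SP-ND and Rhcg in WT-HFD, so those ratios are bounds against 3 UMIs. It was −3.76 and 3.74 for the stress cytokine Gdf15 and 1.72 and −4.18 for S100a6, which was detected in 2.38%, 4.76%, 5.41% and 9.09% of the members in library order. Among members with up to 2000 genes S100a6 had 20, 1, 1 and 7 UMIs in library order, which turns both directions, Cdkn1c had 21, 2, 1 and 2, Gdf15 had 0, 3, 1 and 2, and Rhcg had 0, 0, 1 and 0. Cyp2e1 had 26, 13, 0 and 12, Kcnj15 had 6, 4, 1 and 7, and Acsm3 had 5, 1, 0 and 2. For Egr1 it was −0.59 and 1.26, but 1.94 and 1.21 among members with up to 2000 genes. For Vpreb3, a B cell gene, it was 0.80 and −1.0, and 0.06 and −1.08 among those members.

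Barcodes with B cell RNA also lay outside the limits. At least 3 UMIs of Ms4a1, Cd79a and Cd79b were found in 13 barcodes with 50% or more mitochondrial UMIs, in 17 barcodes with over 5000 genes, and in 236 kept barcodes that were left out for Mzb1 or Jchain (30 and 91 in WT mice on ND and HFD, 1 and 114 in SP mice).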

How the results depend on the processing

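The lambda and in-between light chain shares moved by less than their counting intervals under each alternative run. The B cell share depended on the limits, which also set the denominator: with at least 5 or 2 B cell gene UMIs it was 0.212% or 0.524% in WT-ND. Under 30% mitochondrial UMIs it was 0.560% (WT-ND), 0.655% (WT-HFD) and 0.823% (SP-ND), and with up to 2000 genes 0.678% (WT-HFD), 0.968% (SP-ND) and 1.142% (SP-HFD).

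Genes called against T cells numbered 246 by edgeR, 179 by DESeq2, 226 without the library block, 669 with no filter on low counts, 420 with kept barcodes of up to 3000 genes, and 165 to 289 with a library left out. Against monocytes and dendritic cells they were 633, 505, 670, 1257, 982 and 466 to 686. Over the named genes and alternatives, a call was lost in 3 cases against T cells, all of Ctss, and in 24 against monocytes and dendritic cells, of Cd72, Ciita, H2-DMa, H2-DMb2, H2-Ob and, without the block, Cd74 (−0.93). Ikzf3 was called against T cells with up to 3000 genes (0.83). H2-Oa changed sign, to −0.19 with no filter and from −0.23 (without WT-HFD) to 0.35 (without WT-ND) with a library left out. The cause was not tested.

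Genes past the fold, in the order WT diet, SP diet, genotype on ND and genotype on HFD, numbered 408, 149, 266 and 126 at a minimum of 100 CPM, 70, 7, 24 and 4 at 500 CPM, and 5489, 5354, 5060 and 4731 with no filter.

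Several ratios changed sign with the members counted. With at least 5 B cell gene UMIs, the log2 ratio of SP-ND to WT-ND was −0.042 for Akr1b3, 0.026 for Egr1, 0.50 for Fos, 0.15 for Fosb and 0.79 for Jun. The WT diet ratio was 1.89 for Egr1, and the SP diet ratio 1.83 for Aqp2, −0.21 for Cd74, −0.019 for H2-Ab1, −0.39 for Igkc and 2.35 for S100a6. With up to 3000 genes, Egr1 was 2.06 (WT diet) and 0.46 (genotype on ND), Jun 0.084 (genotype on ND) and S100a6 2.88 (SP diet). With up to 2000 genes, Egr1 was 1.94 (WT diet), Jun 0.067 (genotype on ND) and S100a6 2.35 (SP diet). No ratio is given where both libraries had 3 UMIs or fewer, as Cdkn1c did (genotype on HFD, up to 2000 genes). As a mean over cells, Egr1 was 0.88 (WT diet).

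No paired analysis was possible because each condition had 1 library, with no replicate number in its label to pair by. A model with additive terms for feeding and mutation was not fitted. The fits between cell classes pair them by library. At 37 to 55 cells per library, a gene needs many UMIs for its interval to exclude 0, and differences in rare transcripts were not detectable at this depth.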

Other observations

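Genes of S-adenosylmethionine metabolism and of the PRC2 methyltransferase complex, on a list of 11 genes, were measured at low depth in the B cells, with 82, 80, 55 and 73 UMIs in library order, led by Mat2a. They took 0.0528%, 0.0558%, 0.046% and 0.0452% of B cell UMIs, and 0 of the 5 tested against T cells passed in either direction with edgeR or DESeq2, beside 11.6% of all genes with edgeR, and at an unadjusted edgeR p under 0.05 there were 1 higher and 1 lower. The 20 interferon-stimulated genes, led by Ly6e, took 0.0773%, 0.133%, 0.0586% and 0.0848% of B cell UMIs against 0.109% to 0.176% in T cells. Of the cytokine list, Ltb, a subunit of lymphotoxin, had 35, 50, 71 and 76 UMIs, and Tnf, Il6 and Ebi3 were at 0. The survival receptor Tnfrsf13c (BAFF receptor) had 8, 27, 12 and 27 UMIs.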
